A study of Drosophila melanogaster with 4 samples.

Results

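The brain of the Drosophila melanogaster pharate adult, the fly that is fully formed but still inside its pupal case, was profiled from 2 lysates of about 1000 hand-dissected brains each. These were Canton-S wild-type flies, dissected during the day, with no transgene and no treatment. The series holds 4 arrays, and the 2 described here are the total RNA arrays. Each of them measured RNA from a portion of lysate set aside before LARK, an RNA-binding protein, was immunoprecipitated from the rest. Total RNA 1 and total RNA 2 are thus independent biological replicates of 1 condition, with 1 array each and no technical replicate. The arrays were hybridised on different days, so lysate and day cannot be told apart.

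The members were chosen by their sample titles, and their genes by annotation. Of 13966 probe sets that were not controls, 12442 carried 1 gene symbol, and these stood for 10843 genes. Where a gene had several probe sets, the one with the highest mean log2 signal stood for it. Abundant means a signal in the top 5% of both arrays, above 23.3 in total RNA 1 and 22.6 in total RNA 2. At background means that every probe set of the gene lay at or below the array's median signal, 2.8 on both arrays. A gene that was not at background need not have been detected, as controls for bacterial, yeast and mouse genes read up to 4.0 and 6.5. The values are MAS5 signals, in which the brightness of a set of short probes is summarised and scaled to a common array intensity.

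An insect brain consists of neurons, whose cell bodies form an outer rind around a core of axons and synapses, and of glia that wrap and feed them. At the pharate stage most neurons have stopped dividing and are completing their synapses, while the retina, the cuticle of the head and the air tubes develop next to the brain. Ribosomal proteins, mitochondrial enzymes and cytoskeletal proteins are made in all cells, and their messages are usually the brightest on any expression array.

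Among the gene lists used here, those of the protein-making and energy-producing machinery had the highest shares of abundant members. In all, 386 of 10843 genes were abundant, 3.56% of those measured, and 3580, or 33.0%, were at background. Of the abundant genes 261 were on no list. On a list of 28 genes or fewer 3.56% comes to about 1 gene or less, so a count of 0 abundant members does not set such a list apart. The highest lower signal among named genes was that of CG15765, an uncharacterised gene, with 855.0 in total RNA 1 and 1150.9 in total RNA 2. RpS30, a protein of the small ribosomal subunit, read 876.6 and 776.3. RpL3, a protein of the large subunit, read 640.0 and 607.5, so that the ratio of total RNA 2 to total RNA 1 was 0.949. For these 3 genes the lysates differed by far less than 2-fold.

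Of the 20 genes with the highest lower signal, listed in the plot of the brightest genes, 12 encode cytosolic ribosomal proteins. Among the others were sesB (CG16944), the carrier that exchanges ADP and ATP across the inner mitochondrial membrane, with 588.6 and 753.3, and alphaTub84D (CG2512), an alpha-tubulin of microtubules, with 408.9 and 471.5. Rack1 (CG7111), a scaffold protein bound to the ribosome, read 423.0 and 370.7. ATPsynC (CG1746), the ring subunit of the ATP synthase, read 447.6 and 349.5. A pair of these genes differed by more than 2-fold between lysates: the noncoding RNA lncRNA:CR42862 had 449.1 and 1051.3, and CG13678 had 760.4 and 370.6. The other probe set of lncRNA:CR42862 read 9.6 and 15.5.

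**Figure D1:**
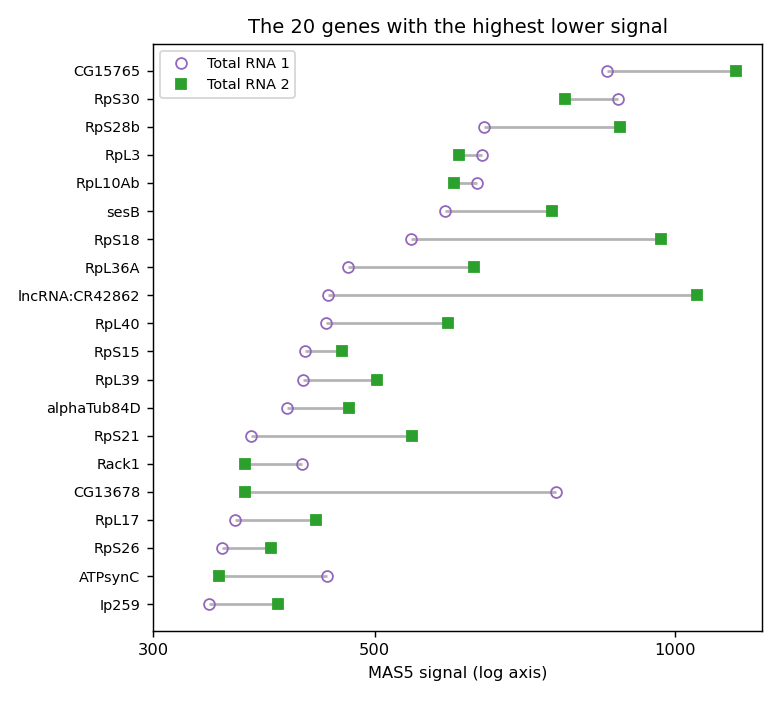
MAS5 signal (log axis) of the 20 genes with the highest lower signal of the 2 arrays, with an open circle for total RNA 1, a filled square for total RNA 2 and a line joining both. All 20 read 341.5 or more on both arrays, and lncRNA:CR42862 and CG13678 have the longest lines, in opposite directions.

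The cytosolic ribosomal proteins, which build the ribosome with its RNA, had the highest share of abundant members of the 36 gene lists. Of 34 measured genes 27 were abundant, 79.4% against 3.56% of all genes, and together the list held 10.6% of the summed gene signal in total RNA 1 and 13.3% in total RNA 2. RpS28b (CG2998) read 643.9 and 881.3, RpL10Ab (CG7283) 633.1 and 600.5, and RpS18 (CG8900) 543.9 and 967.3. The 7 members that were not abundant had lower signals between 0.5 and 4.5, and 4 of them, RpL10Aa, RpS19b, RpS5b and RpS28a, were at background. All 4 are duplicate copies of a ribosomal protein gene. RpS28a read 0.5 and 0.5, while its paralog RpS28b was among the brightest genes.

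The respiratory chain and the ATP synthase, which make ATP in mitochondria, followed with 29 of 69 genes (42.0%) abundant and 7 (10.1%) at background. Beside ATPsynC, the highest lower signals were those of the cytochrome c oxidase subunit cype (CG14028), with 129.4 and 121.1, ox (CG8764), a small subunit of the cytochrome bc1 complex, with 141.1 and 117.2, and UQCR-Q (CG7580), of the same complex, with 132.3 and 105.8. Here, too, duplicate copies stood apart, a split noticed after the values were seen. Of 14 genes whose symbol marks a "like" copy by a closing L, with or without a copy number after it, 0 were abundant, and the highest signal of any of them was 9.6. Of the other 55 genes 29 were abundant and 1, COX7C, was at background, with 0.3 and 0.6.

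The vacuolar proton pump, which acidifies synaptic vesicles and lysosomes, showed the same split, again noticed afterwards. Of 29 genes 8 (27.6%) were abundant, against 3.56% of all genes. The pump's accessory subunits VhaAC45RP (CG31030) and VhaAC45 (CG8029) read 274.2 and 87.8, and 75.8 and 102.6. Vha26 (CG1088), a subunit of the stalk, read 262.8 and 61.6, and Vha13 (CG6213), also of the stalk, 120.7 and 55.5. Of the 6 genes numbered as the first copy of a subunit, such as Vha16-1, 3 were abundant and 0 at background, with lower signals from 13.7 to 43.5. Of the 12 genes numbered as a later copy, such as Vha16-5, 0 were abundant and none read above 9.5.

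Translation factors had 15 of 43 genes abundant (34.9%), against 3.56% of all genes. The RNA helicase eIF4A (CG9075) read 266.9 and 191.6, the elongation factor eEF5 (CG3186) 135.8 and 318.1, eIF5 (CG9177), which helps select the start codon, 84.5 and 180.5, and eIF3h (CG9124) 73.5 and 89.9. Of 8 glycolytic enzymes 3 (37.5%) were abundant and 0 at background. These were Pgi (CG8251), phosphoglucose isomerase, with 60.8 and 57.0, Gapdh1 (CG12055) with 58.9 and 37.3, and Pglym78 (CG1721), phosphoglycerate mutase, with 46.1 and 28.6. Of 39 genes for subunits of the particle that degrades proteins, 0 were abundant and 9 (23.1%) were at background, with the highest lower signal in Rpt5 (CG10370) at 20.5 and 24.4. All 9 have a symbol that marks a duplicate copy by T or R, as in Prosalpha4T1 and Rpt4R. This split, too, was noticed after the values were seen.

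Among cytoskeleton genes 3 of 17 (17.6%) were abundant, alphaTub84D, betaTub56D (CG9277), a beta-tubulin, with 35.6 and 75.3, and the dynein light chain ctp (CG6998), with 25.7 and 22.7. Against 3.56% of all genes, 4 of 25 chaperones and folding enzymes (16%) were abundant. They were Cnx99A (CG11958), a calnexin of the endoplasmic reticulum, with 45.8 and 54.0, the co-chaperone Droj2 (CG8863) with 75.4 and 43.4, the prolyl isomerase Cyp1 (CG9916) with 65.1 and 36.1, and CCT2 (CG7033), a subunit of the chaperonin, with 26.4 and 28.2. The other probe set of CCT2 read 4.5 and 0.4. ctp lay just inside the limit for abundance, as did Irk2 with 23.7 and 22.8, while eIF1 with 23.3 and 26.2 and Npc2a with 46 and 22.6 lay just outside it.

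**Figure D2:**
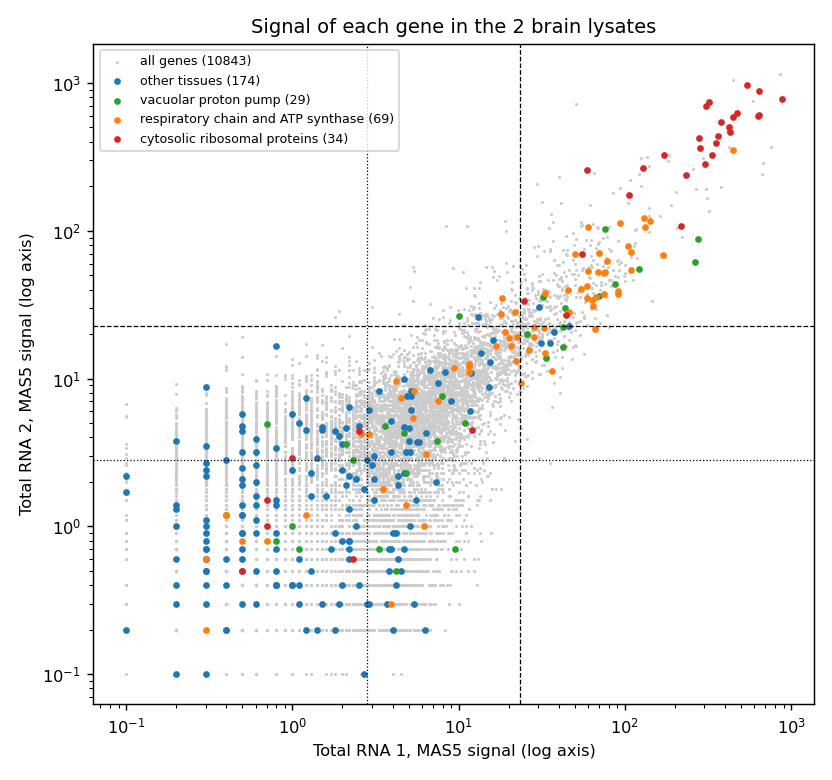
MAS5 signal of 10843 genes in total RNA 1 (horizontal) and total RNA 2 (vertical), both log axes, with 4 groups of genes coloured, dashed lines at the 95th percentile and dotted lines at the median of each array. Ribosomal protein genes fill the upper right corner, apart from 7 dim members, and most genes of other tissues lie toward the lower left.

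Lists grouped as neuronal by function had channels, transmitter enzymes and release factors among the abundant genes. Membership does not make a gene specific to neurons, as nrv2 is also on the glial list and trp and trpl on the photoreceptor list. Of 61 ion channel and pump genes 11 were abundant and 10 were at background. They included unc79 (CG5237), which works with the sodium leak channel, with 124.9 and 201.0, Lcch3 (CG17336), a GABA receptor subunit, with 79.1 and 57.2, and sei (CG3182), a potassium channel of the ERG family, with 71.6 and 43.2. The acetylcholine receptor subunits nAChRbeta2 (51.9 and 38.8) and nAChRalpha2 (32.0 and 36.2) were abundant as well. The sodium channel gene para, by contrast, read 0.3 and 4.9.

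Of 27 genes of transmitter synthesis and transport 4 (14.8%) were abundant, against 3.56% of all genes. Ddc (CG10697) carries out the last step of dopamine and serotonin synthesis and also serves cuticle tanning. It read 184.3 and 327.2. Eaat2 (CG3159), a transporter of glutamate and related amino acids, read 78.5 and 90.8. The acetylcholine genes Ace (CG17907), which degrades the transmitter, and ChAT (CG12345), which makes it, read 69.3 and 81.0, and 66.9 and 77.0. Other enzymes of this list were at background on both arrays, among them ple, the tyrosine hydroxylase that starts dopamine synthesis (0.6 and 1.0), and Gad1, which makes GABA (0.6 and 0.8).

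Of 21 genes of synaptic vesicle release 3 (14.3%) were abundant and 0 were at background, against 3.56% and 33.0% of all genes. Csp (CG6395), a chaperone on vesicles, read 90.9 and 85.5, alphaSnap (CG6625), which helps take apart fusion complexes, 54.6 and 108.4, and unc-13 (CG2999), which primes vesicles for fusion, 44.0 and 69.6. Frq1 (CG5744), a calcium sensor, had 11.1 and 40.8 and so fell short in total RNA 1. The core fusion protein nSyb and the active zone protein brp read 6.9 and 1.4, and 1.2 and 3.9.

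In the list of G protein and calcium signalling 3 of 27 genes were abundant, 11.1% against 3.56% of all genes: the adaptor 14-3-3zeta (CG17870) with 61.9 and 150.5, the arrestin Arr2 (CG5962) with 49.0 and 96.7, and rut (CG9533), the calcium-responsive adenylyl cyclase, with 181.0 and 294.9. The rut probe set is of a type that may match several transcripts, and the gene's other probe set read 0.9 and 0.9. Of 37 RNA-binding proteins 2 were abundant (5.41%), the poly(A)-binding protein pAbp (CG5119) with 122.0 and 240.7, against 0.8 and 0.9 on its other probe set, and stau (CG5753), a protein of RNA transport, with 40.2 and 58.8. The other probe set of stau read 2.1 and 23.2. The lark gene itself (CG8597) read 5.6 and 1.9.

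Of 40 genes of neuropeptides and their processing 2 (5%) were abundant, near the share of all genes, and 9 (22.5%) were at background, against 33.0%. Nplp4 (CG15361), a neuropeptide-like precursor, read 104.5 and 153.7, and amon (CG6438), the convertase that cuts precursors, 37.5 and 51.5. Ms (CG6440), the myosuppressin precursor, had 25.8 and 22.6, at the limit in total RNA 2, and Phm (CG3832), which amidates peptides, 24.3 and 19.5. Pdf (CG6496), the peptide of the clock neurons, had 11.8 and 12.8, and Eh, eclosion hormone, 19.9 and 13.9. Both lay between the median and the top 5% on both arrays. ETH, ecdysis-triggering hormone, which is made outside the brain in endocrine cells of the tracheae, read 0.3 and 0.5.

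Of 14 clock genes 0 were abundant and 2 (14.3%) were at background, against 33.0% of all genes. Above the median on both arrays were 7 of them, beside 4049 of all 10843 genes. Their median signal was 4.3 and 3.75, beside 3.1 and 3.1 for all genes. The highest lower signal was that of dco (CG2048), a kinase that acts on PER, with 15.9 and 25.1. The repressor per (CG2647) read 5.2 and 4.7, the activator cyc (CG8727) 6.4 and 4.7 and its partner Clk (CG7391) 0.4 and 3.8. In total RNA 2 per, cyc and Clk lay below 6.5, the highest control for a bacterial, yeast or mouse gene. For tim (CG3234), the partner of per, 1 probe set read 4.3 and 13 and the others 5.8 and 6.0, and 2.5 and 4.1.

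The labelled tissue was checked against markers of its cell types. Of 18 glial markers 3 (16.7%) were abundant and 2 (11.1%) at background, against 3.56% and 33.0% of all genes. The astrocyte gene alrm (CG11910) read 220.2 and 90.4, the glial adhesion molecule bdl (CG16857) 80.7 and 46.1, the sodium pump subunit nrv2 (CG9261) 39.4 and 42.4, and the glial master regulator repo (CG31240) 14.9 and 22.5. Of 9 neuronal markers 0 were abundant and 1 (11.1%), jeb with 1.2 and 1.4, was at background. The RNA-binding protein elav (CG4262), the standard marker of neurons, had 1.5 in total RNA 1, under the median, and 7.2 in total RNA 2. futsch (CG34387), a microtubule protein of axons, read 10.6 and 52.3 on its brightest probe set and no more than 1.1 on the others, and fne (CG4396), an elav relative, 5.1 and 12.4. Above the median on both arrays were 3 of the 9 neuronal markers and 12 of the 18 glial markers, beside 4049 of all 10843 genes. These counts compare different probe sets and give no measure of the share of either cell type.

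Of 23 photoreceptor genes 3 were abundant and 0 at background. Above the median on both arrays were 15 of them, beside 4049 of all 10843 genes. Others were dim in a single lysate, such as gl with 4.2 and 0.2. Arr2 is given above, and the light-gated channels trp (CG7875) and trpl (CG18345) had 44.2 and 92.5, and 27.6 and 43.8. The surface protein chp (CG1744) read 17.0 and 27.2. Of 15 genes of eye pigment and lens 0 were abundant and 8 (53.3%) were at background, against 33.0% of all genes. The rhodopsin gene ninaE had no probe set with a single symbol and was not analysed here, and the same holds for Eip74EF.

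Genes of cuticle, trachea and epidermis were split. Of 126 genes 7 were abundant, 5.56%, and 50 (39.7%) were at background, beside 3.56% and 33.0% of all genes. Of the abundant ones 6 are structural proteins of cuticle, among them Cpr49Ae (CG8505) with 62.5 and 86.8, Cpr64Ad (CG1259) with 87.3 and 49.8, Ccp84Ag (CG2342) with 100.3 and 45.7 and Ccp84Ae (CG1330) with 78.3 and 35.9. The chitinase gene Cht5 read 38.7 and 31.0. The source of these signals was not tested.

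Markers of fat body, muscle and haemocytes had no abundant member, 0 of 13, 0 of 23 and 0 of 23. At background were 2 (15.4%), 6 (26.1%) and 4 (17.4%) of them, a smaller share in each list than the 33.0% of all genes. Their summed signals were 93.6 and 78.7, 142.6 and 108.0, and 166.2 and 128.6 in the 2 lysates. Single members did exceed the top 5% limit of 1 array: the iron carrier Tsf1 (CG6186) read 36.5 and 6.4, the muscle myosin light chain Mlc2 (CG2184) 35.8 and 18.1 and the matrix protein SPARC (CG6378) 23.8 and 13.9. Markers at background included Prm, paramyosin (0.6 and 0.4), and eater, a haemocyte receptor (1.4 and 0.4).

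**Figure D3:**
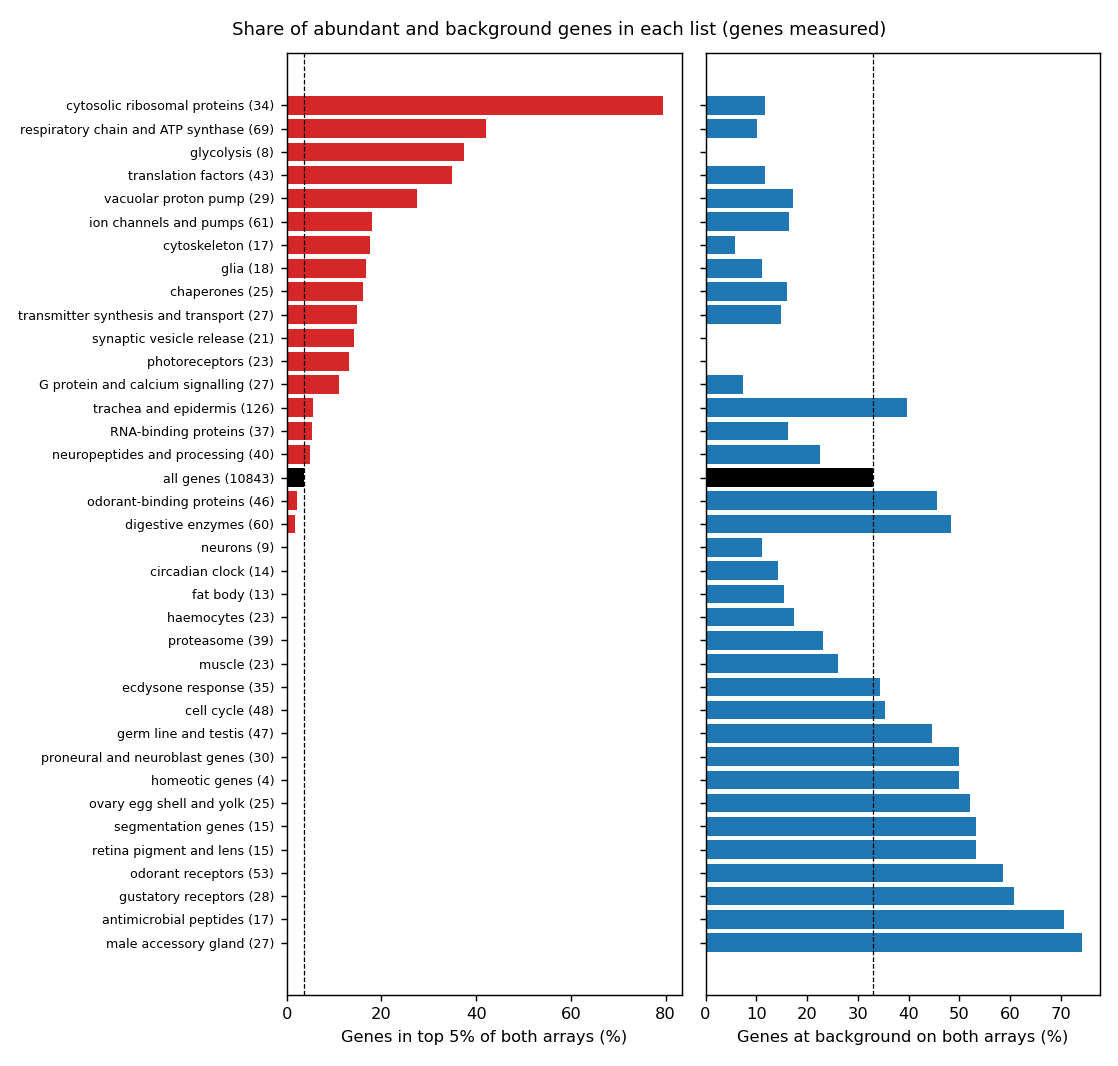
Percent of the measured genes of each list (number of genes in brackets) that lay in the top 5% of both arrays (left) and at or below the median of both arrays (right), with all genes in black and as dashed lines at 3.56% and 33.0%. Ribosomal proteins lead on the left with 79.4%, and accessory gland genes on the right.

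Of 432 genes on the lists of reproductive and digestive tissues, immunity, chemosensation and development, 216, or 50%, were at background, against 33.0% of all genes. Abundant were 2 (0.463%), against 3.56%. Male accessory gland genes, whose products enter the seminal fluid, were at background in 20 of 27. Among the 3 highest in that list, Acp65Aa (CG10297; 37.5 and 20.5) and Acp1 (CG7216; 31.1 and 17.3) are adult cuticle proteins that share the letters of the name, and EbpIII is a protein of the ejaculatory bulb (35.3 and 17.5). Of 17 antimicrobial peptides, which fat body secretes during infection, 12 were at background, with BomS5 (CG15065) the highest at 5.0 and 4.6.

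Chemosensory receptors are made mainly in sensory neurons of the antenna and mouthparts. Of 53 odorant receptors 31 (58.5%), and of 28 gustatory receptors 17 (60.7%), were at background, against 33.0% of all genes. Or43b (CG17853) had the highest lower signal of the first list with 10.4 and 16.2, and Gr66a (CG7189), a bitter receptor, of the other with 3.6 and 3.8. Of 46 odorant-binding and related proteins 21 were at background, and 1 was abundant by a wide margin. Obp44a (CG2297) read 320.4 and 136.6, while the next member, Obp93a (CG17284), read 7.8 and 6.8.

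Among digestive enzymes 29 of 60 were at background, and the lysozyme LysB (CG1179) was the only abundant one with 30.3 and 30.7, on a probe set that may match several lysozyme genes. Of 47 genes of germ line and testis 21 (44.7%), and of 25 of egg shell and yolk 13 (52%), were at background, and 0 of either were abundant. Developmental genes behaved likewise: of 4 homeotic genes 2 were at background, pb with 0.8 and 0.7 and Scr with 0.1 and 0.2. Of 15 segmentation genes it was 8, and of 30 proneural and neuroblast genes 15. Here da (CG5102), the broadly used partner of proneural factors, had the highest lower signal with 19.8 and 19.8.

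Genes of the cell cycle and of the ecdysone response, the hormone pathway that times metamorphosis, were at background at about the overall rate, 17 of 48 and 12 of 35, and 0 of either were abundant. The highest lower signals of the cell cycle list were those of Cdk5 (CG8203; 17.8 and 23.2) and its activator Cdk5alpha (CG5387; 27.2 and 17.3), a kinase known for its work in neurons that have left the cycle. The mitotic cyclin CycB (CG3510) read 7.3 and 8.7. In the ecdysone list the receptor partner usp (CG4380) read 16.5 and 15.5 and the nuclear receptor Hr78 (CG7199) 14.4 and 25.1.

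A MAS5 signal depends on the affinity of the probes and on their distance from the 3′ end of the transcript, so signals of different genes do not rank their transcripts. Of the 386 abundant genes 79 had further probe sets, and in 9 of them every probe set was abundant, whereas in 33 another one was at background. The ratio of the brightest to the dimmest probe set had a median of 26.9 and exceeded 10 in 53 of the 79. These genes were picked by a bright probe set, which by itself favours a large ratio. CG15765 read 855.0 and 1150.9 on 1 probe set and 2.2 and 4.8 on the other. For alphaTub84D both sets were bright, with 408.9 and 471.5, and 418.3 and 418.9. Over 946 genes with exactly 2 probe sets, Spearman's correlation between them was 0.20 in total RNA 1 and 0.08 in total RNA 2, far below that between the lysates. Genes served as the points here, and they are no replicates of each other.

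**Figure D4:**
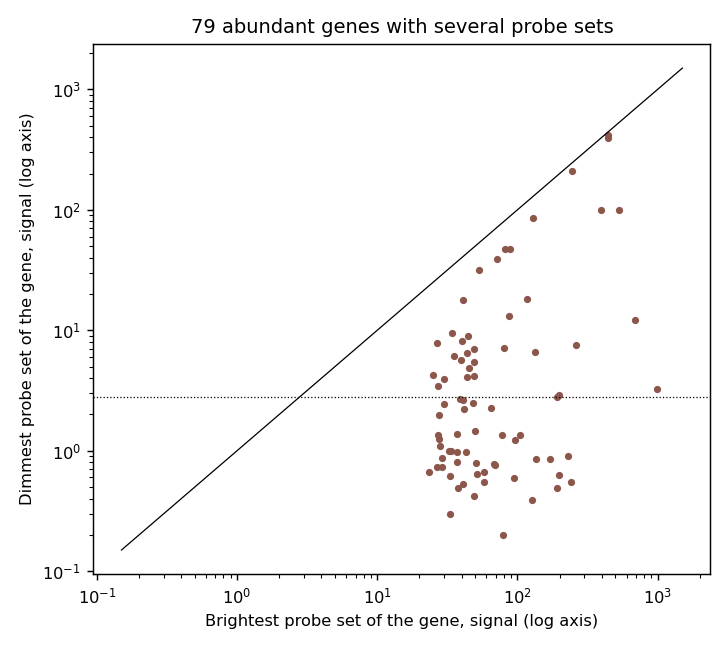
Brightest against dimmest probe set (geometric mean of the 2 arrays, log axes) for the 79 abundant genes with several probe sets, with the line of equality and, dotted, the median signal of 2.8. In 53 genes the sets differ by more than 10-fold. The genes were picked by a bright set, which by itself favours a wide gap.

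Control probe sets placed along a few transcripts served as a check of RNA quality. For eIF4A the control probe sets read 356.6 and 338.3 near the 3′ end, 108.9 and 49.5 in the middle and 9.6 and 9.4 near the 5′ end, a ratio of 3′ to 5′ of 37.1 and 36.0. For GAPDH the ratio was 9.53 and 8.86. For actin, with 17.6 and 17.4 near the 3′ end and 1.1 and 2.6 near the 5′ end, it was 16 and 6.69. Both 5′ readings of actin lay below the array median of 2.8, so its ratios are uncertain. On both arrays the 3′ sets were brighter in all 3 controls, and the actin ratio differed between the arrays by more than the other 2 did. The 18S ribosomal RNA controls differed more, with 393.8 and 1006.5 in the middle set and 70.0 and 436.6 in the 5′ set. The 23 controls for bacterial, yeast and mouse genes had a median of 0.8 on both arrays and no value above 4.0 and 6.5. Where the probe sets of other genes lie along their transcripts was not analysed. With the 3′ sets of the controls so much brighter, a low reading, such as those of ple, Gad1, para or elav, does not show that a transcript was scarce.

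The lysates were compared over all probe sets and by signal. Over all 13966 probe sets, Pearson's r of log2(signal + 0.8) was 0.73 and Spearman's rho 0.61, and the log2 difference between arrays had an SD of 1.10. On this scale 65.1% of probe sets lay within 2-fold (95% Wilson interval 64.3 to 65.9, which covers counting error only). Without the pseudocount it was 49.8%. Over the 4865 probe sets above the median on both arrays, r was 0.85, rho 0.69 and the SD 0.70, with 85.7% within 2-fold. Over the 5020 at or below the median on both, r was 0.10 and rho 0.12, while the SD was 0.71 and 81.0% lay within 2-fold. Dim signals thus had nearly no order in common, although most differed by little on this scale. In 5 equal bins of mean signal, from the lowest to the highest, the share within 2-fold was 92.3%, 41.9%, 37.6%, 70.4% and 83.5%. The pseudocount of 0.8 exceeds the median signal of 0.520 in the lowest bin. The points share the array, its scaling and its probes.

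The lists of abundant probe sets overlapped widely. Of 697 probe sets in the top 5% of total RNA 1 and 698 in that of total RNA 2, 527 were shared, 75.6% and 75.5%. Only 5 probe sets were in the top 5% of 1 array and at or below the median of the other. Among the abundant genes, 319 of 386 (82.6%) differed by less than 2-fold, 33 exceeded a 2-fold difference or reached it with total RNA 2 on top, and 34 with total RNA 1 on top. With 1 array for each lysate no test of a single gene is possible.

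There were 2168 genes with a signal in the top 15% of at least 1 array, counted by the higher signal. A difference of 2-fold or more was found for 327 of them (15.1%) toward total RNA 2 and for 333 (15.4%) toward total RNA 1. Among the abundant genes, the largest difference was that of CG31140, with 50.7 and 718.6. Its other 3 probe sets read between 0.4 and 6.7. Rdl (CG10537), the main GABA receptor subunit, read 29.4 and 207.6, isoQC (CG5976) 39.9 and 232.4, and the ribosomal stalk protein RpLP2 (CG4918) 59.0 and 256.9. The other probe set of isoQC read 1 and 1.5. In the other direction stood CG7214 with 146.0 and 33.7, Vha26, and the tetraspanin TM4SF (CG11303) with 667.5 and 242.5.

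The largest log2 differences in the whole set mostly involved a signal in the background range, 14 of the 16 at or below 2.8, so that their size is uncertain. AnxB10 (CG9579), an annexin, read 23.4 and 0.5, and the heat shock protein Hsp68 (CG5436) 12.8 and 0.4. On the other side cass (CG6582) had 0.5 and 19.0, SRPK (CG8174), a kinase of splicing factors, 0.4 and 17.2, and the yolk protein Yp1 (CG2985) 0.8 and 16.6. Galphao (CG2204), the neuronal G protein subunit, is an exception with 8.4 and 107.4, but its other probe set ran the opposite way with 12.9 and 3.1.

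Some gene lists lay to 1 side as a group. Over all 4049 genes above the median on both arrays, the median log2 difference, total RNA 2 minus total RNA 1, was 0.01. It was -0.86 for 18 vacuolar proton pump genes, of which 14 were higher in total RNA 1, and at least 2-fold so for 8 of the 15 with a bright enough signal, against 15.4% of all genes. Their summed signal was 1184.7 and 596.5. Glia had -0.60 over 12 genes, where Gs2 (CG1743), a glutamine synthetase, read 48.8 and 16.3 and repo ran the other way. Chaperones had -0.66 over 17 genes and the respiratory chain -0.32 over 57. Of 50 respiratory genes with a bright enough signal, 10 differed 2-fold or more toward total RNA 1 and 0 toward total RNA 2. Among all genes these shares were 15.4% and 15.1%, so the count toward total RNA 1 was near its share.

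Other lists lay toward total RNA 2. G protein and calcium signalling genes had a median of 0.70 (17 genes), RNA-binding proteins 0.51 (21 genes), ion channels 0.43 (41 genes) and cytosolic ribosomal proteins 0.34 (28 genes). Of 27 ion channel genes with a bright enough signal, 10 differed 2-fold or more toward total RNA 2 and 1 toward total RNA 1, beside 15.1% and 15.4% of all genes. Rdl, Nckx30C (5.3 and 56.6) and SK (5.3 and 33.6), a calcium-gated potassium channel, were among them. The 3 neuronal markers above the median on both arrays, futsch, Rbp9 (CG3151; 8.1 and 26.1) and fne, differed by 2-fold or more toward total RNA 2, whereas nSyb (6.9 and 1.4) read higher in total RNA 1. The other probe set of Rbp9 was dim and ran the opposite way, with 1.9 and 1.3. Photoreceptor genes had 0.39 over 15 genes, among them trp and trpl of the ion channel list and Arr2 of the G protein list. The summed signal of the 9 neuronal markers was 36.2 and 113.3, and 25.6 and 61.0 without futsch, an omission chosen after seeing the data, with 8 members higher in total RNA 2 and 1 in total RNA 1. That of the 18 glial markers was 523.1 and 298.3, and 302.9 and 207.9 without alrm, with 11 higher in total RNA 1 and 6 in total RNA 2, among them repo, loco (8.1 and 20.3) and gcm (0.6 and 6.6). In bulk RNA, fewer cells of a type and less RNA per cell cannot be told apart. The part of cell content, of the 3′ to 5′ ratio or of the hybridisation day in these differences was not tested.

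**Figure D5:**
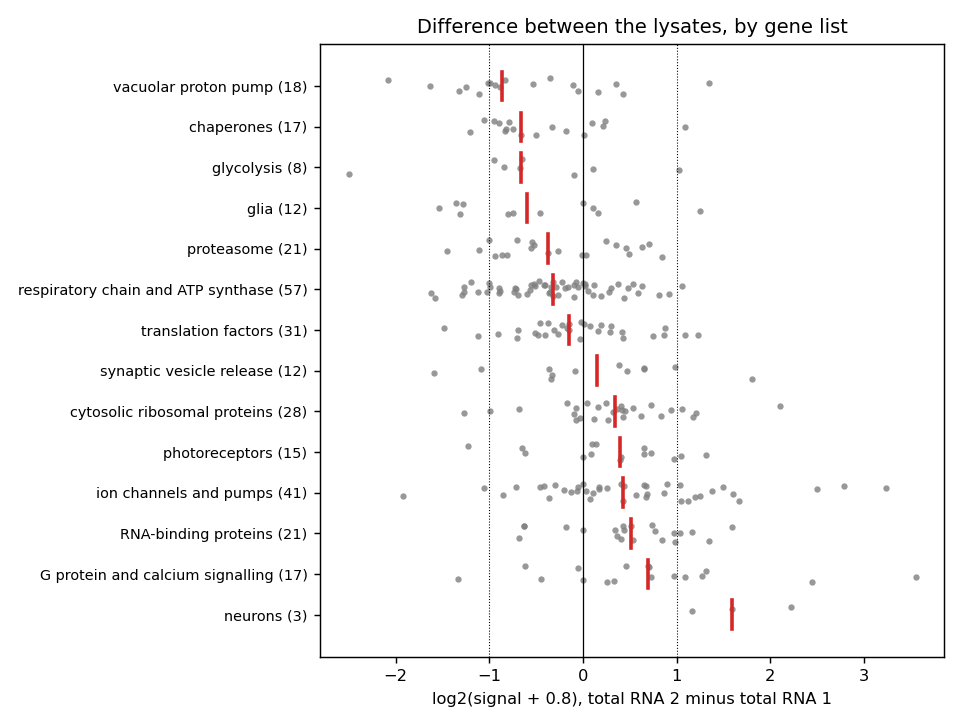
Difference of log2(signal + 0.8), total RNA 2 minus total RNA 1, for the genes of 14 lists above the median on both arrays (number of genes in brackets), with a grey point per gene, a red bar for the list's median and dotted lines at 2-fold. The medians run from -0.86 for the vacuolar proton pump to 1.60 for 3 neuronal markers.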

How the data were processed

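RNA was labelled and hybridised to Affymetrix DrosGenome1 arrays by the authors, who computed probe set signal intensity with Affymetrix Microarray Suite 5.0 (MAS5) at default settings and scaled all arrays to the same target intensity. The deposited intensity values are linear and relative to the whole signal of an array. Its 2% trimmed mean was 5.00 on both total RNA arrays. Detection calls were not used here, and the genome build was not given in the sources used here. Per the file headers, IP and total RNA of a lysate were hybridised on the same day and the lysates on different days. The deposited instrument records hold no expression value.

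Percentiles were taken within each array over the 13966 probe sets that were not controls. Of these, 327 had several gene symbols and 1197 none, and they were named nowhere. Of 10843 genes, 10798 matched RefSeq (assembly Release 6) by gene ID, and 0 symbols differed. Differences and the shares of probe sets within 2-fold used log2(signal + 0.8), which understates changes of low signals. Counts of 2-fold differences used plain ratios. Computation used Python 3.11.15, pandas 2.3.3, scipy 1.17.1 and statsmodels 0.14.6, and was tested on simulated data. There was 1 group of 2 arrays, so no group was compared and no test was run, and 2 arrays limit the precision. Alternatives changed the limits, the pseudocount, the normalization, the filter and the arrays used.

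Named were the 20 genes with the highest lower signal, up to 4 genes per list with the highest lower signal, abundant members of lists of other tissues, the 8 genes with the largest difference in each direction and a fixed set including lark, elav and the clock genes. Other genes in the text were chosen after their values were seen, and the members and lists were chosen with earlier results of these data known. Lists were matched by symbol patterns, which can miss members (RpL37-1) or take in others. Protein length, chromosome arm and promoter motifs were not analysed here.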

Additional observations from a re-analysis of the deposited data

Results flagged for a closer look

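Probe sets without a gene symbol were left out of all counts of genes, yet 113 of them lay in the top 5% of both total RNA arrays. They made up 21.4% of the 527 abundant probe sets, against 8.57% of all probe sets. Among the 20 probe sets with the highest lower signal, 12 had no single symbol. The brightest of them read 1528.2 and 1522.8. The account of named abundant genes is thus incomplete at its bright end.

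The controls for 18S ribosomal RNA, which lie outside the gene measurements, gave strong signals that differed between lysates. The middle probe set read 393.8 in total RNA 1 and 1006.5 in total RNA 2, above the highest value of the unspiked controls, 4.0 and 6.5.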

How the results depend on the processing

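The number of abundant genes, 386, was 138 with the top 2% and 809 with the top 10% of both arrays, and the number of abundant genes on any list, 125, was 70 and 196. On a single array the first was 525 to 536 and the latter 156 to 158. Lists with a share of abundant members above that of all genes numbered 16, and 14 to 19 under these settings. With every probe set of a gene required to be abundant 316 genes were counted, and 358 with plain probe sets only, an alternative chosen after seeing the data. The 3580 background genes were 1236 at the lower quartile, 4029 at the level of the unspiked controls, 3595 by the brightest probe set and 5128 to 5187 on a single array. The share of probe sets within 2-fold, 65.1%, was 49.8% with no pseudocount, 86.4% with a pseudocount of 3.2, 85.7% above the median on both arrays and 83.5% in the top 15% by mean signal. Among probe sets with their higher signal in the top 15%, a 2-fold difference was reached by 415 toward total RNA 2 and 408 toward total RNA 1. These counts were 3591 and 3419 with no filter, 98 and 107 with both signals in the top 15%, and 203 and 178 at 3-fold. Quantile normalization gave 402 and 413 and loess 417 and 409. No paired analysis was possible because 1 group was described. Probe sets at or below the median on both arrays had nearly no order in common.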

Other observations

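Of the 386 abundant genes, 261 were on none of the lists, and these were chosen for mention after their values were seen. Several act in synapses or neuronal membranes: igl, a calmodulin-binding protein, read 141.4 in total RNA 1 and 122.6 in total RNA 2, hig, a protein of the synaptic cleft, 163.4 and 125.7, and klg, an adhesion molecule of the immunoglobulin family, 139.3 and 276.5. The other probe set of klg was at background with 0.3 and 1.3. Others serve metabolism, such as Men-b, a malic enzyme, with 257.6 and 263.4, porin, the channel of the outer mitochondrial membrane, with 117.4 and 65.4, and IscU, the scaffold of iron-sulfur clusters, with 188.9 and 148.4. The other probe sets of Men-b and porin were dimmer, with 7.7 and 7.4, and 12.8 and 13.7. The ubiquitin gene Ubi-p5E read 380.0 and 198.9. Genes known only by a CG or CR number made up 84 of the abundant genes, 21.8%, against 48.1% of background genes and 41.6% of all genes.

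Abundant genes also lay next to each other more often than the overall share. Of 756 genes with an abundant neighbour in the RefSeq order of measured genes, 57 were abundant, 7.54%, against 3.28% of the 10042 others. A run of 3 neighbours occurred 1 time, with aqz (37.0 and 115.0), CG8369 (44.9 and 43.0) and IscU. No test was made.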
